A study of Mus musculus with 12 samples.

Results

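The carboxylesterase genes Ces1b, Ces1c, Ces1d, Ces1e, Ces1f, Ces1g, Ces2a, Ces2c, Ces2e and Ces3a were followed in livers of obese mice on diets with different protein contents. The 10 genes were chosen by symbol, out of 20 genes of the family and 56980 genes in all in the matrix, and all 10 passed the filter on low counts. RNA came from livers of male B6.Cg-Lepob/J (ob/ob) mice, labelled Lep-/-, which lack the hormone leptin in every cell and become obese with a fatty liver. No lean or leptin-sufficient animals were used here. The mice were 8 weeks old at the start, fed freely, and 11 weeks old at harvest. For 3 weeks, 6 mice ate chow with 25% of energy as protein (standard protein diet, SPD) and 6 ate chow with 5% (low protein diet, LPD). LPD replicate 1 carries conflicting labels: its title and library code name LPD, whereas its treatment and description name the 25% chow. It was kept in LPD, and the members' values with it counted as SPD are given after the other results.

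Carboxylesterases are serine hydrolases that cleave ester and amide bonds in drugs and pesticides, and in triacylglycerols, cholesteryl esters and retinyl esters. In mouse liver they are abundant enzymes of hepatocytes. Most sit in the lumen of the endoplasmic reticulum (ER), held there by a short tail that the KDEL receptors recognise and return from the Golgi. There, Ces1d mobilises stored triacylglycerol for the assembly of very low density lipoprotein (VLDL), whereas Ces1c is secreted and is a major esterase of mouse blood plasma.

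All 20 family genes lie on chromosome 8 of GRCm38 (GENCODE M21), in 2 clusters of tandem copies. The first spans 516 kb (93020214 to 93535830), holds 9 genes on the minus strand and contains the 6 Ces1 genes studied. The second spans 416 kb (104734003 to 105150109), holds 11 genes on the plus strand and contains Ces2a, Ces2c, Ces2e and Ces3a. Coding sequences of the members ranged from 1665 bases in Ces1c, with 13 exons in its transcript, to 1716 bases in Ces3a. The most alike pair among the 10 was Ces1b and Ces1c, with 88.8% of aligned coding bases identical, and the least alike was Ces1e and Ces3a, with 54.9%. The last 33 coding bases show where the enzymes part ways in their tails. Capitals mark the 4 codons before the stop codon, and each sequence lies in the last coding exon on GRCm38.
Ces1b, chr8:93056887-93056919, minus strand: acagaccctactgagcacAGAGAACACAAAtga
Ces1c, chr8:93099165-93099197, minus strand: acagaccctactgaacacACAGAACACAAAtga
Ces1d, chr8:93166255-93166287, minus strand: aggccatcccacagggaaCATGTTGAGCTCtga
Ces1f, chr8:93256429-93256461, minus strand: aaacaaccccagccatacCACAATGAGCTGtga
Ces1g, chr8:93302905-93302937, minus strand: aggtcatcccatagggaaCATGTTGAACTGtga
Ces2a, chr8:104741384-104741416, plus strand: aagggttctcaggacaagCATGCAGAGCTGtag
Ces2c, chr8:104854232-104854264, plus strand: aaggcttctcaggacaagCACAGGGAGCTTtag
Ces3a, chr8:105058071-105058103, plus strand: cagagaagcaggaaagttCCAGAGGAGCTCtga
In 7 of the 10 members the 4 codons in capitals share a pattern, read on the coding strand: the first codon begins with CA, the third with GA, and the middle base of the last is T. Ces1e, Ces2e and the 5 such genes shown above are the 7, and Ces1b, Ces1c and Ces3a are the others. Of 21699 annotated mouse coding genes, 0.406% hold the pattern at that place.

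The data are bulk RNA counts per gene. Total counts ranged from 19374676 to 23710930 in SPD libraries and from 19404340 to 23681408 in LPD libraries. Levels are given as CPM, counts scaled to a common library total with TMM factors, and levels of different genes are compared as CPM per kilobase of the deposited gene length, except where the counts of genes with shared sequence are set against each other. Differences are log2 fold changes of LPD over SPD ± standard error (SE), with n = 6 mice per diet, tested with edgeR's quasi-likelihood test over 13768 genes. Adjusted p-values are Benjamini-Hochberg values over all those genes, and a gene was called when its value was under 0.05.

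In LPD livers 7 of the 10 carboxylesterases rose, 2 fell and Ces1f did not pass, where 39.9% of all tested genes passed in either direction. The largest rise was made by Ces3a, at 5.48-fold, followed by Ces1b (2.79-fold), Ces2a (2.44-fold) and the secreted esterase Ces1c (2.23-fold). Ces2c, a hydrolase of acylcarnitines and triacylglycerols, fell 1.83-fold, and Ces2e fell 1.40-fold. Over all tested genes 20.7% were called higher and 19.2% lower. The median log2 fold change of the 10 members was 0.60, against -0.00059 over all tested genes. All LPD livers lay above all SPD livers for 5 members, where 10.2% of all tested genes did so, and all lay below for Ces2c, where 9.73% of all tested genes did. These are bulk samples, so fewer cells of a type and less RNA per cell cannot be told apart.

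**Figure D1:**
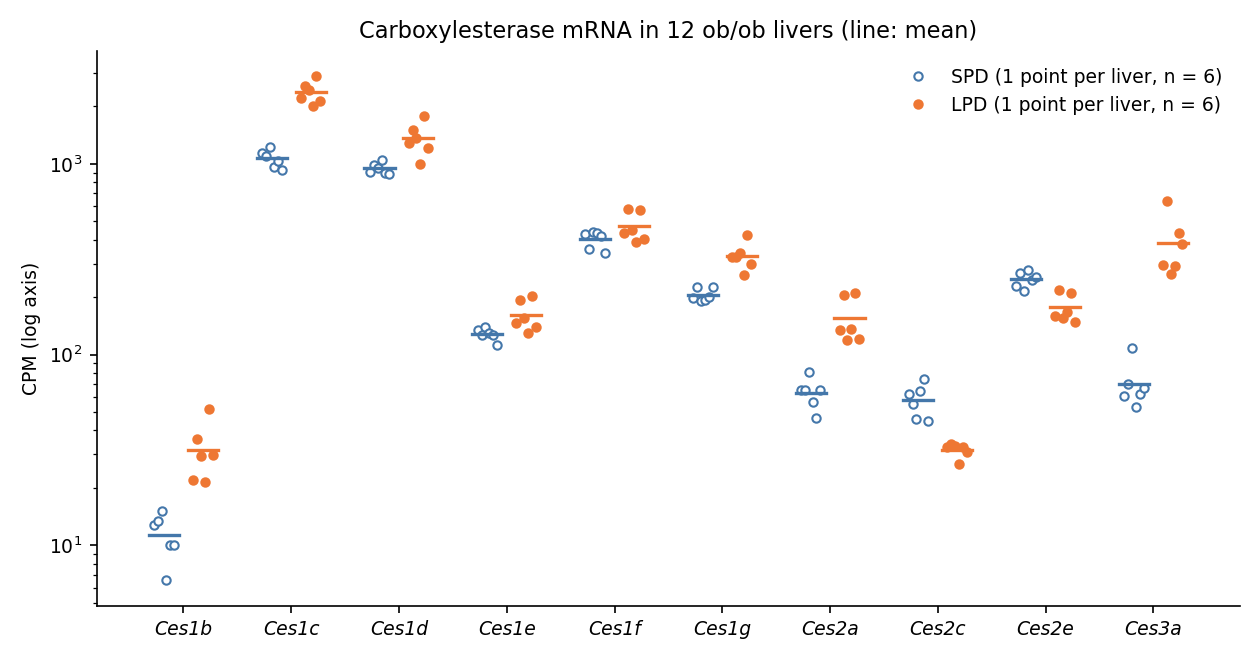
CPM of each carboxylesterase on a log axis, with 1 point per liver (open for SPD, filled for LPD) and a line at the mean of 6. The diets do not overlap for Ces1b, Ces1c, Ces1g, Ces2a, Ces2c and Ces3a, and do overlap for Ces1d, Ces1e, Ces1f and Ces2e.

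Ces1c was the most abundant member per length in both diets. Its level was 1135, 1105, 1228, 967, 1038 and 929 CPM in SPD replicates 1 to 6. In LPD replicates 1 to 6 it was 2217, 2574, 2433, 2014, 2889 and 2126 CPM. Every LPD liver therefore stood above the highest SPD liver, and the liver with the lowest LPD value, replicate 4, still had more than SPD replicate 3. The mean rose from 1067 ± 111 to 2375 ± 324 CPM (SD, n = 6), a log2 fold change of 1.15 ± 0.095 (adjusted p = 4.67e-07). Counted by level per kilobase, Ces1c was at place 69 among the 13768 tested genes.

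Ces1b, the neighbour most like it, was the least abundant member per length in SPD livers. It ranged from 6.54 to 15.1 CPM in SPD livers (median 11.4) and from 21.4 to 51.6 CPM in LPD livers (median 29.6), so the diets did not overlap. The log2 fold change was 1.48 ± 0.22 (adjusted p = 8.37e-05). Of the 50-base windows of its annotated transcript, 9.92% also occur in Ces1c, and its count was 1.05 ± 0.204% of the Ces1c count in SPD livers and 1.31 ± 0.290% in LPD livers. Its own level is uncertain for that reason, since how the authors' counting assigned shared reads is not given in the sources used here.

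Ces1d, the ER triacylglycerol hydrolase, followed Ces1c in level. It ranged from 884 to 1050 CPM in SPD livers (median 930) and from 998 to 1790 CPM in LPD livers (median 1329). Only LPD replicate 4 lay within the SPD range, and replicate 5 stood highest. The rise was 0.52 ± 0.11 (adjusted p = 0.00149). Ces1g, whose loss in mice is known to raise liver fat and plasma lipids, lay between 190 and 227 CPM in SPD livers (median 199) and between 261 and 421 CPM in LPD livers (median 324). The diets did not overlap, and the rise was 0.68 ± 0.094 (adjusted p = 5.42e-05).

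Ces1e, known as egasyn, the ER anchor of beta-glucuronidase, ranged from 112 to 140 CPM in SPD livers (median 128) and from 130 to 204 CPM in LPD livers (median 151). LPD replicates 4 and 6 lay within the SPD range. The rise of 0.33 ± 0.10 passed (adjusted p = 0.0163). It was 0.16 without LPD replicates 2 and 5 (adjusted p = 0.0863), the livers with its highest values, 193 and 204 CPM. With only the 4 SP1 and 4 LP4 libraries fitted it was 0.24 (adjusted p = 0.119). Ces1f, a further lipid hydrolase of the ER, had 340 to 441 CPM in SPD livers (median 425) and 388 to 582 CPM in LPD livers (median 442). Its difference of 0.22 ± 0.11 did not pass (adjusted p = 0.113), and it was 0.053 without LPD replicates 2 and 5, the livers with its highest values, 582 and 573 CPM.

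Ces2a and Ces2c, both with the shared coding-end pattern and 82.4% identical in their coding sequences, moved in opposite directions. Ces2a, a hydrolase of acylglycerols, ranged from 46.5 to 81.0 CPM in SPD livers (median 65.1) and from 119 to 209 CPM in LPD livers (median 136). Its rise was 1.29 ± 0.16 (adjusted p = 1.92e-05). Ces2c stood at 61.8, 55.3, 46.1, 64.8, 74.8 and 44.9 CPM in SPD replicates 1 to 6, and at 32.6, 34.0, 33, 26.8, 32.8 and 30.8 CPM in LPD replicates 1 to 6. All LPD livers lay below the lowest SPD liver and close to each other, with a coefficient of variation of 8.18% against 19.9% in SPD livers. Its log2 fold change was -0.87 ± 0.11 (adjusted p = 2.56e-05). The ratio within each liver of Ces2a to Ces2c per kilobase does not depend on the scaling between libraries. It was 0.625 to 1.77 in SPD livers (median 1.12) and 3.61 to 6.42 in LPD livers (median 4.64). The lack of overlap follows from the ranges of both genes just given, and the pair was chosen after its values were seen. Of the 50-base windows of Ces2c transcripts 32.7% also occur in the pseudogene Ces2d-ps, whose count was at most 0.466% of that of Ces2c.

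Ces2e, the third member of its subfamily studied, ranged from 216 to 276 CPM in SPD livers (median 251) and from 149 to 219 CPM in LPD livers (median 164). LPD replicate 2, the highest, lay just within the SPD range. The log2 fold change was -0.49 ± 0.099 (adjusted p = 0.00119). The ratio of Ces2a to Ces2e per kilobase was 0.193 to 0.383 in SPD livers and 0.774 to 1.01 in LPD livers.

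The sequences before Ces2a and Ces2c are shown because these genes of one cluster moved in opposite directions. Each is the 250 bases before the annotated start, from RefSeq on GRCm38.p6, and capitals mark the nuclear receptor half-site described next.
Ces2a, chr8:104733753-104734002, plus strand: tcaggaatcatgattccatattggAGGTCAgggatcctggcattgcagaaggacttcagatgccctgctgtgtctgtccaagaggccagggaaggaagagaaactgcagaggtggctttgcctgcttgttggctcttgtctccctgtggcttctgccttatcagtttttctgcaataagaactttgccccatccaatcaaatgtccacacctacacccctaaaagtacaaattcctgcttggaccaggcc
Ces2c, chr8:104846818-104847067, plus strand: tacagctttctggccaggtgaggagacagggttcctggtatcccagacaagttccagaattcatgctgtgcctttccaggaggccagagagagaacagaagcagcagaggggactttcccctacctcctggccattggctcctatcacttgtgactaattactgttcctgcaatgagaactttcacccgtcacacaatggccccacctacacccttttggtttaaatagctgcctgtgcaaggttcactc
Upstream sequences reaching 50 bases past the start were matched for 7 of the 10 members, all but Ces1d, Ces1f and Ces3a. In these 300-base stretches, both strands were searched for 7 motifs that overlap no other in the members. The half-site AGGTCA, bound by receptors such as PXR and CAR within pairs, occurred in Ces2a alone of these 7 members, and in 16.3% of all 32851 promoters of that length. The same half-site was found at Ces2h and Ces4a, which are not members, and its effect on expression was not tested. AGTTCA, the other receptor half-site searched, occurred in Ces1b (14% of all promoters) and TATAAA in Ces1g (13.6%). Neither match was tested for an effect on expression. No match in the 7 members was found for the amino acid response element TGATGNAAN (3.95% of all), the sterol response element TCACNCCAC (1.24%), the HNF4 core CAAAGTCCA (0.475%) or the HNF1 half-site GTTAAT (7.10%). Aligned over the same stretches, Ces2a and Ces2c were 65.0% identical, Ces2a and Ces2e 54.9%, and Ces2c and Ces2e 53.2%.

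Ces3a showed the largest difference of the family and the 22nd largest rise among all tested genes. Its level was 60.4, 70.4, 108, 53.3, 62.1 and 66.4 CPM in SPD replicates 1 to 6. In LPD replicates 1 to 6 it was 296, 638, 264, 290, 435 and 381 CPM. The lowest LPD liver, replicate 3, had more than SPD replicate 3, the highest of the other diet. The mean rose from 70.1 ± 19.4 to 384 ± 140 CPM (SD, n = 6), a log2 fold change of 2.45 ± 0.22 (adjusted p = 8.75e-07). Its near copy Ces3b, with 95.3% identical coding bases, had 21.0 ± 5.10 CPM in SPD livers and 21.2 ± 4.2 CPM in LPD livers and did not pass (0.011 ± 0.16, adjusted p = 0.963). Of the 50-base windows of Ces3a transcripts 25.6% also occur in Ces3b, so the split between both is uncertain. The sum of both was 67.0 to 132 CPM in SPD livers and 280 to 666 CPM in LPD livers, which do not overlap, and the mean sum was 4.45 times higher in LPD.

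**Figure D2:**
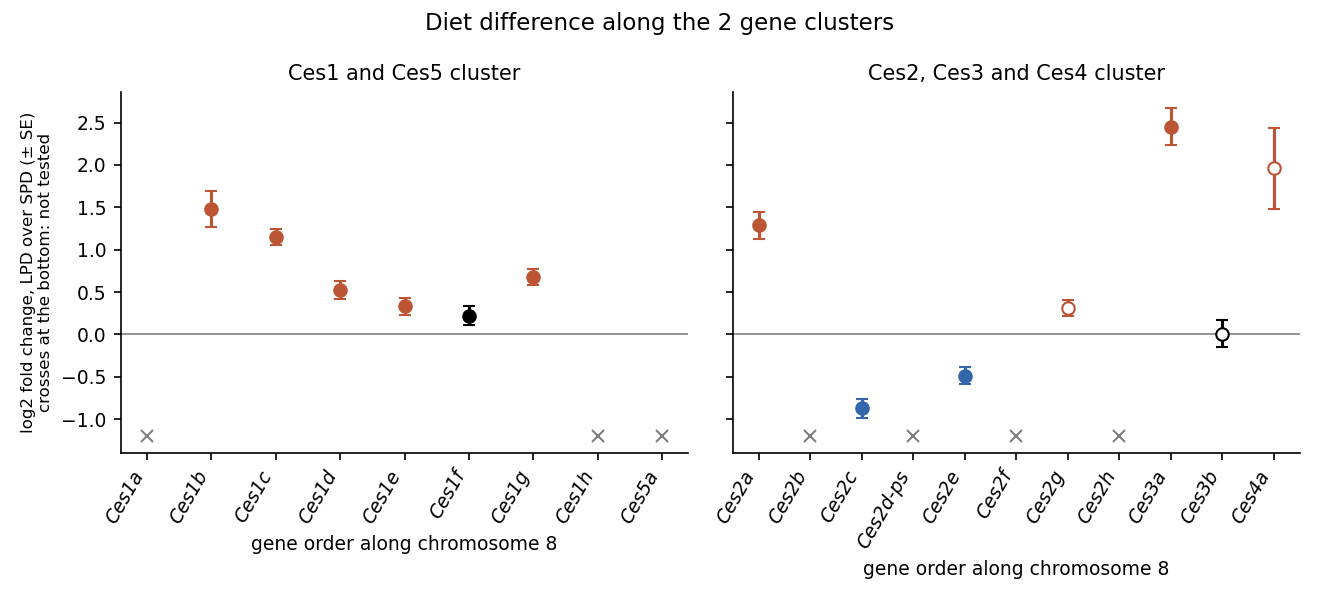
Log2 fold change (LPD over SPD, ± SE) of the 20 family genes in their order along both clusters of chromosome 8, with filled points for the 10 members, open points for other family genes, and crosses for genes not tested. Within the Ces1 cluster the values run from 0.22 in Ces1f to 1.48 in Ces1b, and in the other cluster falls (Ces2c, Ces2e) lie between rises (Ces2a, Ces2g, Ces3a).

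Of the 10 other family genes, 3 passed the filter on low counts and 7 did not. Ces2g rose from 47.1 to 65.9 CPM in SPD livers to 59.6 to 85.4 CPM in LPD livers (0.31 ± 0.095, adjusted p = 0.0158). That call was lost without LPD replicates 2 and 5, the livers with its highest values (0.20, adjusted p = 0.0962). It was also lost when only SP1 and LP4 libraries were fitted (0.32, adjusted p = 0.0765). Ces4a rose by 1.96 ± 0.48 (adjusted p = 0.0043), with 1 to 10 counts per SPD library and 8 to 29 counts per LPD library. The diets overlapped, and the level is too low for a precise fold. Ces1a, Ces1h, Ces2b, Ces2d-ps and Ces2h never had more than 19 counts in a library, and Ces2f and Ces5a had 0 in all 12.

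Per kilobase, the members kept a wide order of levels. In SPD livers Ces1c (584 ± 60.8 CPM per kilobase) and Ces1d (472 ± 32.4) led, with Ces1c above Ces1d within every liver although their ranges overlapped. Ces1f (210 ± 22.7), Ces2e (124 ± 11.4), Ces1g (86.2 ± 6.86) and Ces1e (61.8 ± 4.58) followed. Ces3a (34.2 ± 9.49), Ces2a (32.3 ± 5.82) and Ces2c (29.4 ± 5.86) came next with overlapping ranges, and Ces1b was lowest (5.76 ± 1.55). In LPD livers Ces1c (1299 ± 177) and Ces1d (679 ± 134) no longer overlapped. Ces3a (188 ± 68.3) overlapped with Ces1f (245 ± 44.0) above it and with Ces1g (138 ± 22.4) below it, and exceeded Ces1g in 5 of 6 livers. Ces2e (88.6 ± 15), Ces2a (78.9 ± 21.4) and Ces1e (77.9 ± 14.5) overlapped as well, while Ces2c (16.1 ± 1.32) and Ces1b (16.2 ± 5.70) could not be told apart.

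The mRNA pool of the whole family grew, and its make-up shifted. The 10 members took 0.300 to 0.346% of all counts in SPD livers and 0.472 to 0.644% in LPD livers. The summed level of all family genes was 1669 ± 84.7 CPM per kilobase in SPD livers and 2861 ± 468 in LPD livers (SD, n = 6). Ces1c made up 34.9 ± 2.28% of that sum in SPD livers and 45.6 ± 1.81% in LPD livers, and Ces3a 2.04 ± 0.491% and 6.49 ± 1.70%. Shares of Ces1d (28.3 ± 1.72% and 23.6 ± 1.36%), Ces1f (12.6 ± 1.08% and 8.55 ± 0.345%) and Ces2e (7.46 ± 0.892% and 3.11 ± 0.299%) were lower in every LPD liver than in every SPD liver, although the Ces1d level itself rose. LPD replicates 2 and 5 had the largest pools, as the plot of the make-up by liver shows.

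**Figure D3:**
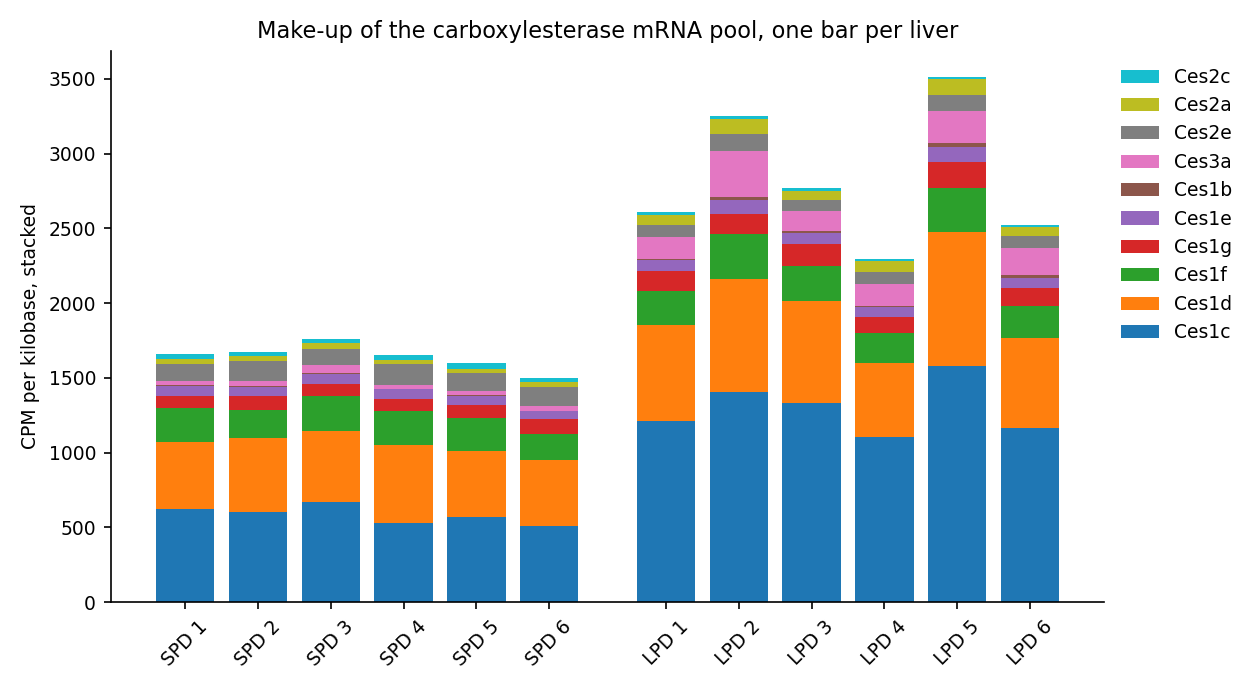
Stacked CPM per kilobase of the 10 members, 1 bar per liver. The SPD bars are of similar height, every LPD bar is taller, and the mean shares of Ces1c and Ces3a grow most in percentage points.

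The nearest expression pattern outside the family was sought for the most abundant, the most risen and the most fallen member, as the smallest root mean square difference of mean-centred log2 CPM over the 12 livers among 10856 named genes. Nearest to Ces1c was Akr1c6, a hydroxysteroid dehydrogenase (0.089, where the spread of Ces1c itself was 0.60). Nearest to Ces3a was the sulfotransferase gene Sult2a8 (0.26 against 1.27). Nearest to Ces2c was Sc5d, an enzyme of cholesterol synthesis (0.14 against 0.47). All 3 differed between the diets, with log2 fold changes of 1.16 ± 0.087 for Akr1c6, 2.48 ± 0.17 for Sult2a8 and -0.92 ± 0.081 for Sc5d, so diet enters each likeness.

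Genes tied to the carboxylesterases by function, lipid export or ER retrieval were counted from lists. Their counts are to be read beside the 20.7% of all tested genes called higher and the 19.2% called lower. Of 15 tested neutral lipid lipases and their cofactors 4 rose and 5 fell, with a median log2 fold change of -0.05. Hepatic lipase Lipc (0.73 ± 0.089), the lipase inhibitor G0s2 (1.03 ± 0.14) and monoacylglycerol lipase Mgll (0.31 ± 0.059) rose. Pnpla3 (-3.34 ± 0.32), hormone-sensitive lipase Lipe (-0.64 ± 0.076) and Abhd5, the activator of adipose triglyceride lipase (-0.60 ± 0.064), fell. Pnpla3 stood at 4.76 ± 1.57 CPM in SPD livers and at a very low level, 0.46 ± 0.20 CPM, in LPD livers. The diets did not overlap for Pnpla3, but its level in LPD livers is too low for a precise fold. Of 10 other ester and epoxide hydrolases 5 rose, among them paraoxonase Pon1 (1.23 ± 0.13), and 4 fell, among them Pon2 (-0.26 ± 0.065), with a median of 0.20. Of 8 VLDL assembly genes Cideb rose (0.17 ± 0.058) and Mttp fell (-0.27 ± 0.070), and the list's median was 0.014. Of 3 KDEL receptors Kdelr2 rose (0.22 ± 0.056), and Kdelr1, at 72.0 ± 4.57 and 74.4 ± 2.65 CPM, did not pass. Kdelr3 fell (-1.37 ± 0.35) at a very low level, 0.91 ± 0.28 CPM in SPD and 0.35 ± 0.20 CPM in LPD livers, with overlapping diets. Mttp no longer passed with SP1 and LP4 libraries only (adjusted p = 0.0579) or with LPD replicate 1 moved to SPD (adjusted p = 0.119), and Kdelr3 did not in the former (adjusted p = 0.0535). The Cideb call was lost in 8 of 23 alternatives.

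Transcription factors that have been tied to carboxylesterase genes rose in 8 of 12 cases, where 20.7% of all tested genes were called higher. Nfe2l2 fell (-0.50 ± 0.075), and the median of the list was 0.28. The xenobiotic receptor CAR, encoded by Nr1i3, went from 39.3 to 60.2 CPM in SPD livers to 131 to 224 CPM in LPD livers, without overlap (1.75 ± 0.15, adjusted p = 5.80e-07). Nr1i2, which encodes the related receptor PXR (0.49 ± 0.057), and Hnf4a (0.41 ± 0.060) rose as well. Of 15 tested target genes of both receptors 9 rose, among them Ugt1a1 (1.23 ± 0.098), Cyp2b10 (1.51 ± 0.12) and Por (0.91 ± 0.097), and Abcc2 fell (-0.33 ± 0.062), with a median of 0.75. Whether these genes act on the carboxylesterases was not tested.

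**Figure D4:**
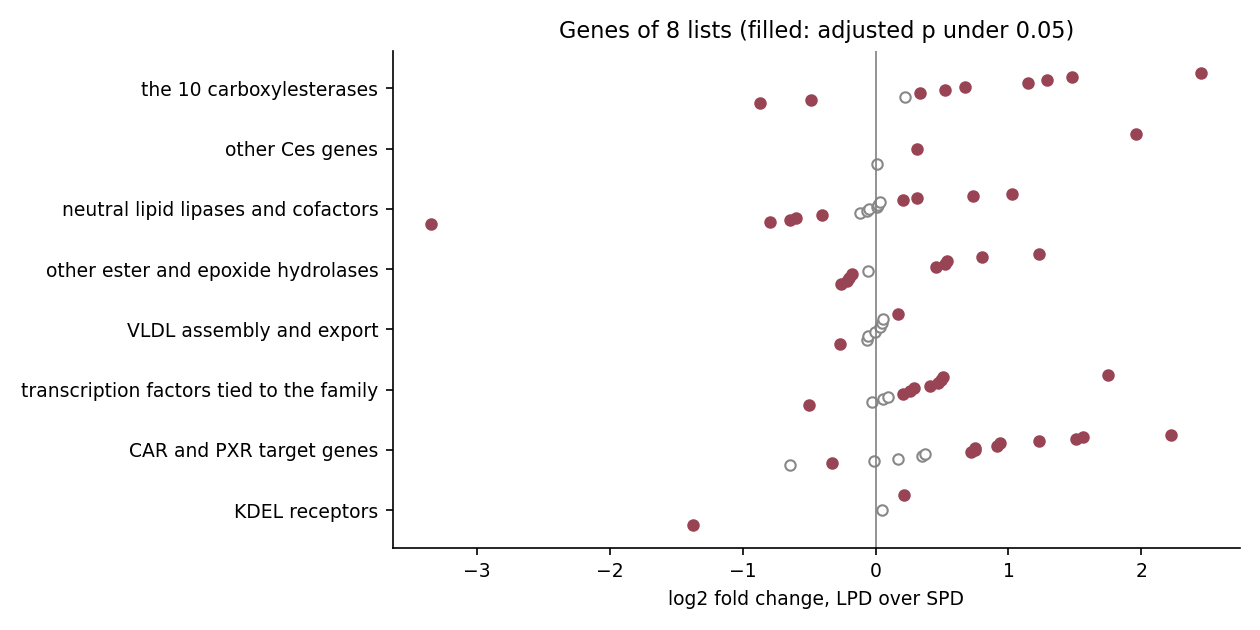
Log2 fold changes of all tested genes of the 8 lists, 1 point per gene, filled where the adjusted p was under 0.05. The carboxylesterases lie between -0.87 and 2.45, and most filled points of the CAR and PXR target genes lie above 0.

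The libraries carried the markers of liver. Counts of called markers are to be read beside the 20.7% of all tested genes called higher and the 19.2% called lower. All 8 hepatocyte markers were detected, with a sum of 78360 to 86250 CPM in SPD livers and 70710 to 95180 CPM in LPD livers. Of these, Ahsg, Tat and Serpina1a rose, as did Apoa1, which was picked with its value known, and the other 4 did not pass. Macrophage markers (1 of 8 rose, 2 fell) summed to 619 to 929 CPM in SPD and 525 to 738 CPM in LPD livers, stellate cell markers (4 of 8 fell) to 504 to 712 and 350 to 614 CPM, endothelial markers (1 of 8 rose, 2 fell) to 401 to 454 and 360 to 418 CPM, and cholangiocyte markers (1 of 5 tested fell, Spp1) to 156 to 449 and 43.2 to 117 CPM. Most of the cholangiocyte sum came from Spp1, at 245 ± 112 CPM in SPD and 63.3 ± 25.6 CPM in LPD livers. The other 4 tested cholangiocyte markers did not pass, with mean levels of at most 3.03 CPM in either diet. The part of these marker shifts in the carboxylesterase results was not tested. Adipocyte markers, of tissue where Ces1d and Ces1f are also abundant, summed to at most 0.444 CPM in SPD and 0.763 CPM in LPD livers. None of these 6 had enough counts to be tested. Of 6 intestinal markers Vil1, Lct, Alpi and Muc2 had too few counts to be tested, Fabp2 rose and Apoa4 fell, and liver expresses these 2 as well. Of 6 exocrine pancreas markers Cpa1, Pnlip and Amy2a5 were at 0 in all livers and Cela1 fell (-0.44 ± 0.10). Of 6 T and B cell markers 2 were tested, Cd79a (0.28 ± 0.26) and Cd79b (-0.20 ± 0.28), and neither passed.

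Within the standard diet, SPD replicate 3 was the highest liver for 6 members and SPD replicate 6 the lowest for 5. Within the low protein diet, replicate 5 was highest for 6 members, replicate 2 for the other 4, and replicate 4 lowest for 7. Over all tested genes, LPD replicates 2 and 5 had the lowest mean correlations with the other LPD livers (0.982 and 0.983, against 0.984 to 0.985), a small gap. Without both, 6 members rose and 2 fell, where 2352 of 14110 tested genes were called higher and 2234 lower. Values were then 2.14 for Ces3a, 1.18 for Ces1b, 1.04 for Ces1c, 1.02 for Ces2a and -0.91 for Ces2c. With LPD replicate 1 counted as SPD, 7 members rose and 2 fell, where 2265 of 13956 tested genes were called higher and 2224 lower. Ces3a then differed by 1.97 (adjusted p = 0.00256), Ces1c by 0.97 (adjusted p = 0.00215) and Ces2e by -0.38 (adjusted p = 0.0389), each smaller in size than with the library in LPD. Ces1b differed by 1.39, Ces1d by 0.47, Ces1e by 0.33, Ces1g by 0.57, Ces2a by 1.11 and Ces2c by -0.79. Ces1f, again not called (0.23, adjusted p = 0.123), was slightly larger than with the library in LPD. No library code is found in both diets: 4 SPD libraries carry SP1 and 2 carry SP2, and 4 LPD libraries carry LP4 and 2 carry LP5. What the codes stand for is not stated, and they cannot be told apart from diet. The plot of alternatives shows the value of each member under every setting tried.

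**Figure D5:**
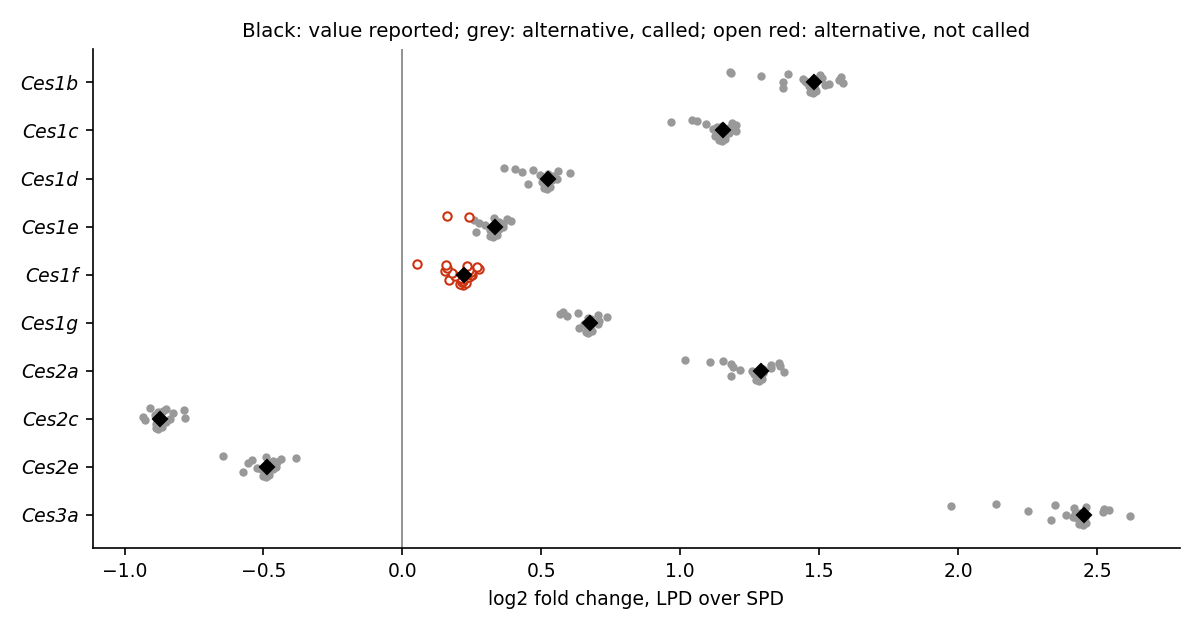
Log2 fold change (LPD over SPD) of each member as reported (black diamond) and under 23 alternatives (grey where the adjusted p was under 0.05, open red where it was not). No member changes sign, Ces1f is open under every alternative and Ces1e under 2.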

How the data were processed

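Liver RNA of 12 mice was sequenced after TruSeq library preparation, per the labels' protocols. TopHat, DESeq2 and the mm10 build are named in the submitters' processing notes, without role or version. The deposited matrix holds the authors' expected counts per gene, not scaled between libraries. Values that were not whole (tolerance 0.005) made up 17.1% to 18.9% of those above 0 per library, and 6 of the 10 members had such values. The counting program, and how it treated strand and shared reads, is not given in the sources used here. Rows without a symbol (1542) held 0.214% of the counts and stayed in the library sizes, as they carry gene IDs.

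Counts were rounded and tested in R 4.3.3 with edgeR 4.0.16 (filterByExpr with minimum count 10 and minimum total 15, TMM scaling, quasi-likelihood F test, diet as the only term). The SE was taken from the fold change and F (its size on the log2 scale over the root of F). The test was tried on simulated data first. Alternatives used DESeq2 1.42.0 and limma 3.58.1 among others, listed in the closing section. Sequences were aligned with Biopython 1.88. The 6 mice per diet are taken as separate animals from the labels.

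The members and lists were chosen with earlier results of these data known. Named genes are all 10 members, the tested family genes, and up to 3 called genes per direction of each list by smallest adjusted p. Nearest patterns were sought among named genes whose log2 CPM averaged 1 or more. The motifs, the coding-end pattern and the gene pairs set in ratio were chosen after the values were seen.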

Additional observations from a re-analysis of the deposited data

Results flagged for a closer look

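Of 108 groups of 6 livers checked (54 named genes in each diet), 5 held a liver far from the others by Dixon's 95% limit, which chance alone exceeds in about 1 of 20 groups. Ces3a stood at 108 CPM in SPD replicate 3, against 53.3 to 70.4 CPM in the other SPD livers. Without that liver the Ces3a log2 fold change was 2.62. In the same liver Pnpla3 was low, at 1.77 CPM against 4.69 to 6.26 CPM. Nr1i2 was at 112 CPM in SPD replicate 4 (104 to 105 CPM in the others), Hnf4a at 391 CPM in SPD replicate 5 (412 to 424 CPM) and Oit3 at 41.3 CPM in LPD replicate 1 (38.5 to 39.3 CPM).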

How the results depend on the processing

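The alternatives numbered 23: DESeq2 size factors, upper quartile scaling, no filter, 1 CPM in 6 libraries, the DESeq2 Wald test, limma-voom with sample weights, counts rounded down, the replicate block, each of the 12 libraries left out, LPD replicate 1 counted as SPD, the SP1 and LP4 libraries alone, and no LPD replicates 2 and 5. Each of the 10 members kept its sign in all 23, and 9 of the members kept their side of the threshold. The exception, Ces1e, lost its call in 2. With each library left out in turn, 7 members were called higher and 2 lower every time, while over all genes 2555 to 2803 were called higher and 2391 to 2653 lower. In the SP1 and LP4 libraries alone 1827 genes were called higher and 1693 lower, against 2850 and 2646 with all libraries; fewer libraries enter there. With the replicate block 2668 and 2562 genes were called, and 7 and 2 members. The labels give no shared source for same-numbered livers, and their deviations from the diet means correlated at -0.0539 to 0.0968.

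Ces3b, which was never called, changed sign with upper quartile scaling (-0.0048), with limma-voom (-0.027) and without LPD replicates 2 and 5 (-0.15), and ranged from -0.083 to 0.097 with each library left out; the cause was not tested. Among the other 44 named genes, 65 of the values under alternatives lost the call, most often for Oit3 (11), Cd5l (10), Bche and Marco (9 each) and Fabp2 and Cideb (8 each). Depth limits the genes of few counts: Ces4a had 1 to 29 counts per library and was not tested in the SP1 and LP4 libraries or with at least 1 CPM in 6 libraries, and Kdelr3 was not tested under that filter.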

Other observations

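The spread between livers was wider on the low protein diet for 9 of the 10 members. The share of all tested genes with a wider spread was not counted, so this is not shown to be particular to the family. LPD replicate 5 or 2 was the highest LPD liver for every member, so the 10 are not separate observations. The coefficient of variation of CPM was 6.86% in SPD and 19.8% in LPD livers for Ces1d, 7.40% and 18.6% for Ces1e, and 27.7% and 36.4% for Ces3a. Ces2c was the exception, at 19.9% and 8.18%. Ratios within a liver varied less with diet for some pairs than for others. Ces1c to Ces1f per kilobase was 2.34 to 3.26 in SPD livers and 4.66 to 5.67 in LPD livers, whereas Ces1d to Ces1f, at 2.03 to 2.66 and 2.47 to 3.00, overlapped between the diets. Ces3a to Ces3b was 2.63 to 5.37 and 15.9 to 26.7.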
